A study of Mus musculus with 10 samples.

Results

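The genes described here encode the proteasome, and were taken as every gene whose single annotated symbol begins with Psma, Psmb, Psmc or Psmd followed by a digit. The rule found 40 genes read by 80 of the 45101 probe sets on the array, and each gene was represented by its probe set with the highest mean over the 10 arrays. Of these, 38 had a probe set bright enough to test, among 12502 tested genes in all. They comprise 17 genes of the core particle (Psma1 to Psma7 and Psmb1 to Psmb10), 20 genes of the regulatory particle (Psmc1 to Psmc6 and Psmd1 to Psmd14, of which Psmd5, Psmd9 and Psmd10 encode assembly chaperones of the base and not stable subunits) and Psmc3ip, which shares the letters of the rule but encodes a meiotic recombination factor. The last gene was kept out of the counts and medians of expression, so 37 proteasome genes were counted there. The promoter motif counts start from all 40 genes and include it. Psma8, the testis form of an alpha subunit, and Psmb11, the thymus-specific catalytic subunit, did not pass the intensity filter.

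The proteasome degrades proteins marked with ubiquitin. Its core particle is a barrel of stacked alpha and beta rings with the proteolytic sites inside, and the regulatory particle that caps it consists of a base, with a ring of ATPases that unfolds substrates and feeds them into the core, and a lid that removes ubiquitin. In red cell precursors the ubiquitin and proteasome system is known to clear proteins, unpaired globin chains among them, while the cell is remodelled.

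RNA was measured in mouse erythroleukemia (MEL) cells, transformed red cell precursors grown in culture, on 10 Affymetrix arrays. The parental line carries BirA, the bacterial biotin ligase, and was measured on 2 arrays. FBB1.5, FBB1.7, FBB1.10 and subclone FBB1.11 are 4 clones of the BirA line that in addition carry BCL11A, a repressor of fetal globin genes, fused to a FLAG-Biotag, and each was measured on 2 arrays. Each subclone is a single clone, BirA is shared by all 5 lines, and the labels do not say whether both arrays of a line stand for separate cultures. The p-values therefore measure a spread between arrays that may be technical.

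Intensities are the deposited linear probe set values. Log2 differences were taken on the scale log2(intensity + 16), which understates the change of dim genes, and are given with the standard error (SE) of limma's fit of 5 line means, n = 2 arrays per line. Adjusted p-values are Benjamini-Hochberg values over all 25061 tested probe sets, and a gene is said to have risen or fallen only where its adjusted p was under 0.05. A probe set reads its own hybridisation, so levels are compared between lines for 1 gene and not between genes.

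Erythroid markers were measured for 9 of 12 listed genes, and 7 of them were tested. Gata1, the erythroid master transcription factor, lay between 1993 and 2383 on the 10 arrays, whereas the probe sets of Slc4a1 and Hba-a1 never exceeded the table median of 30.5. Of the 7 tested, 2 passed as lower in FBB1.7 and none passed in the other subclones: Tal1, an erythroid transcription factor, at -0.39 ± 0.12 on the log2 scale and Tfrc, the transferrin receptor, at -0.33 ± 0.093 (limma's adjusted p = 0.045 and 0.035). Tfrc and the erythroid gene Alas2 also differed between the subclones (F test, adjusted p = 0.0014 and 0.027). Mean Alas2 intensity was 65.9 in parental cells, 96.0 for FBB1.5, 61.9 for FBB1.7, 96.5 for FBB1.10 and 60.8 for FBB1.11. Epor lay above both parental arrays in every subclone but passed in none. The summed intensity of 9 mast cell genes, most of it from the protease gene Mcpt2, was 6267 for parental cells, 5881 for FBB1.5, 1076 for FBB1.7, 2516 for FBB1.10 and 1861 for FBB1.11, with Fcer1a and Ms4a2 never above the median. FBB1.7 thus had the lowest mast cell sum, and mean Mcpt2, Cma1 and Cpa3 were lowest there. Not all listed genes followed the sum. Mean Gzmb was lowest for FBB1.11 (129, against 178 for FBB1.7) and Mcpt4 for FBB1.5 (18.7, against 32.8 for FBB1.7). Tpsb2 was highest for FBB1.7 (54.2, against 38.7 for parental cells) but passed in no subclone. Among the 7 tested mast cell genes, Mcpt2, Cma1 and Gzmb passed as lower in every subclone except FBB1.5. Cpa3 passed as lower only in FBB1.10 and FBB1.7, and Mcpt4 only in FBB1.5. Mcpt2, Mcpt4, Cma1 and Gzmb lie on chromosome 14, where 82 of 440 tested genes rose in FBB1.5. The tested mast cell genes on other chromosomes had log2 differences in FBB1.5 of -0.48 (Cpa3), 0.31 (Tpsb2) and 0.01 (Kit), and none of them passed there. The part of these erythroid and mast cell differences in the values below was not tested. As a sign of RNA quality, the actin control probe sets gave a 3' to 5' ratio of 1.22 and 1.80 on the parental arrays, 1.47 and 1.14 in FBB1.5 and 1.06 to 1.17 on the other arrays.

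Proteasome genes passed as higher than parental in each of the 4 subclones, most widely in FBB1.7, and none of the 37 passed as lower in any subclone. At an unadjusted p under 0.05 in limma, 1 was lower in FBB1.7 and 1 in FBB1.10, Psmb8 in both, and 0 in FBB1.5 and FBB1.11. In FBB1.7, 21 of 37 rose, against 4.55% of all tested probe sets that rose there and 5.50% that fell. Among the tested probe sets with a mean intensity above 200, where most of these genes lie, the share that rose in FBB1.7 was 11.3%. Such a share is not given for the other comparisons, whose backgrounds include dim probe sets. FBB1.10 had 6 raised members against a background of 1.08% higher and 0.718% lower. FBB1.5 had 4 against 1.29% higher and 0.734% lower, and FBB1.11 had 1, Psma4, against 0.0758% higher and 0.112% lower. The median log2 difference of the core particle genes was 0.18 for FBB1.5, 0.42 for FBB1.7, 0.20 for FBB1.10 and 0.19 for FBB1.11, and that of the regulatory particle genes was 0.02, 0.34, 0.19 and 0.04 in the same order. Over all tested genes the median was 0.01 for FBB1.5, -0.02 for FBB1.7 and 0.00 for FBB1.10 and FBB1.11. Of the 37 genes, 28, 33, 34 and 28 lay above parental in the 4 subclones in that order, where 52.8%, 47.6%, 50.9% and 50.6% of all tested genes did. In these bulk samples a change in the share of cells that hold a transcript and a change in its amount per cell cannot be told apart. The 4 comparisons share the parental arrays, and for the mean of the tagged subclones no member passed in limma with the line as a random block. A fit chosen after seeing the data, which adjusted for the actin 3'/5' ratio, gave 18 of 37 higher in FBB1.7. Without an intensity trend in the variance, FBB1.7 had 14 raised members and the other 3 subclones 0 each. The share of all probe sets called is not given for these alternative fits or for those below with arrays left out, so their counts have no background beside them. Fits with arrays left out rest on fewer arrays for every probe set, not only for the members.

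**Figure D1:**
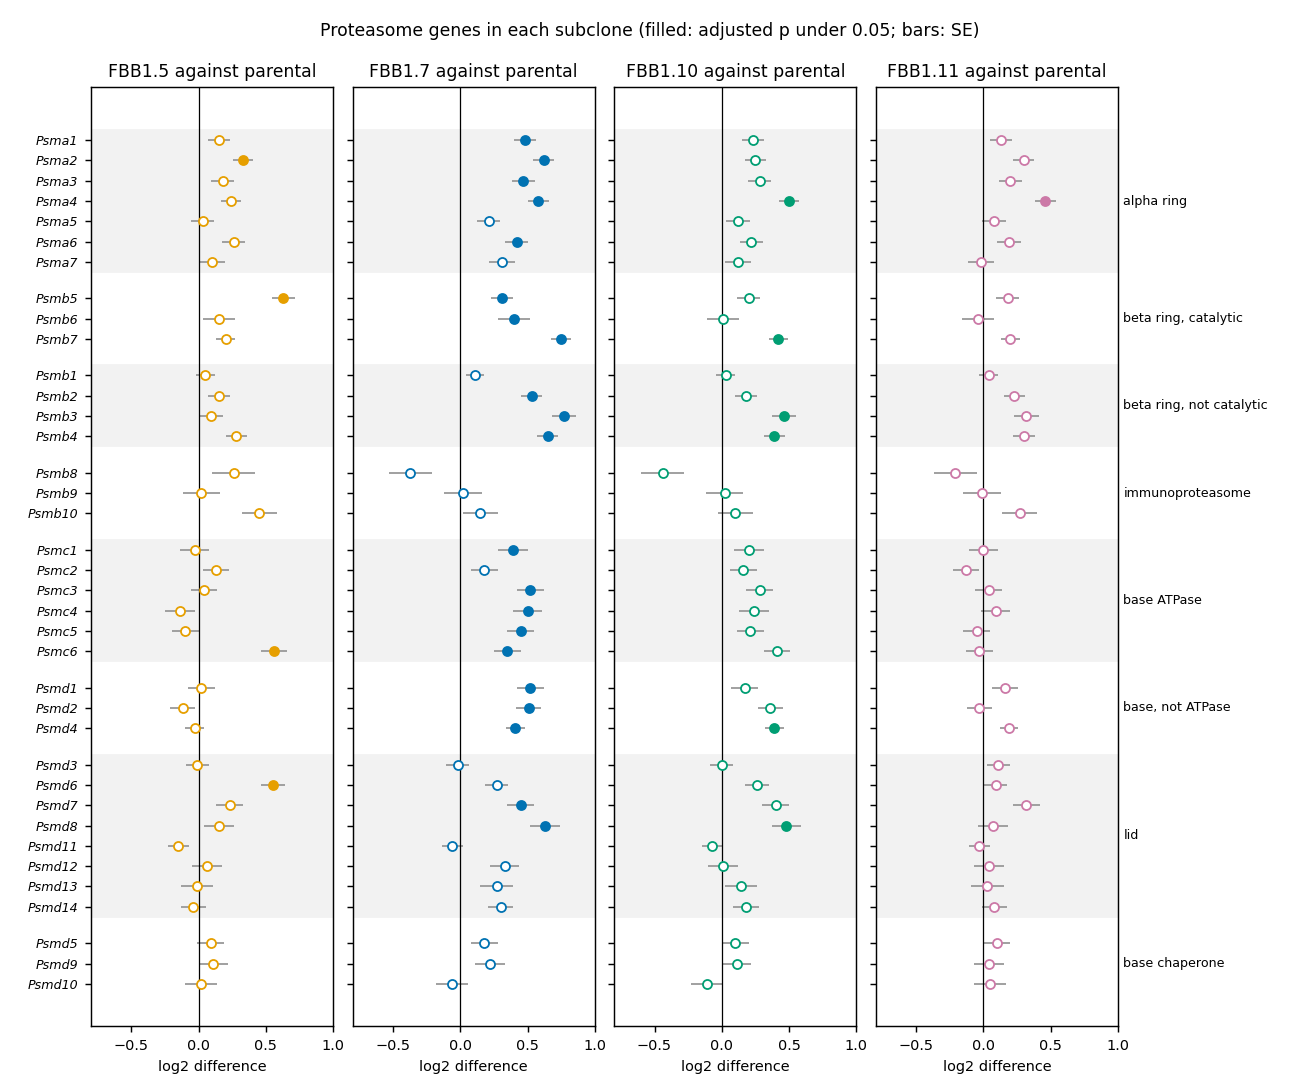
Log2 difference from parental cells of the 37 tested proteasome genes, grouped by role, in each of the 4 subclones, with bars for the SE and filled points where limma's adjusted p was under 0.05. Filled points number 4 for FBB1.5, 21 for FBB1.7, 6 for FBB1.10 and 1 for FBB1.11, all to the right of 0.

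Calls in FBB1.7 depended on which arrays were used, and 12 of the 21 passed whichever array was left out. The count was 13 without FBB1.7 1 and 12 without FBB1.7 2, and up to 22 with another array left out. In FBB1.5 it was 2 without either array of that subclone. In FBB1.10 it was 3 without FBB1.10 1 and 2 without FBB1.10 2. In FBB1.11 it was 0 without either FBB1.11 array and 2 without parental 2.

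The start regions of 6 of these genes are shown because their genes shared calls. Psma4, Psmb3, Psmb4 and Psmd4 are 4 of the 6 that rose in both FBB1.7 and FBB1.10, and Psmb5 and Psmd6 were among the 4 that rose in FBB1.5. Each window runs from 250 bases before to 50 bases after the start of the gene, from RefSeq on GRCm38.p6, 5′ to 3′ on the strand of the gene. Capitals mark matches on either strand to 4 motifs, namely TGACNNNGC (core of the antioxidant response element, read by NFE2L1, the factor known to raise proteasome genes when proteasome activity falls, and by NFE2L2), CCAAT (the NF-Y box), CCGGAAG (an ETS site) and TTTCNNTTT (an interferon-stimulated element), and no 2 matches overlapped in these windows. The windows lie at chr9:54950609-54950908, + strand for Psma4, chr11:97703184-97703483, + strand for Psmb3, chr3:94886909-94887208, - strand for Psmb4, chr3:95042565-95042864, - strand for Psmd4, chr14:54617946-54618245, - strand for Psmb5 and chr14:14120896-14121195, - strand for Psmd6.
Psma4: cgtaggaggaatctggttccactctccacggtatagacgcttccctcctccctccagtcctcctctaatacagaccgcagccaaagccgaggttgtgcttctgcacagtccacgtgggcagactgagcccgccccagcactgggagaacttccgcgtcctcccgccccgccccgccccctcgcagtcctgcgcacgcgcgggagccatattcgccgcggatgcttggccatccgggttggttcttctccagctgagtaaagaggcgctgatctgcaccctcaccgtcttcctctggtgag
Psmb3: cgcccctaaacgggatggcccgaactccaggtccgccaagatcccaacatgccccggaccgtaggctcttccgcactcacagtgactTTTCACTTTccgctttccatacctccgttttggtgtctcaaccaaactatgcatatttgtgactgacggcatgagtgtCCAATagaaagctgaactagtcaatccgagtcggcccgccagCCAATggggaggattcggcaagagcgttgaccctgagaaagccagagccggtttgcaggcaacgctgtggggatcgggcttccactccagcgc
Psmb4: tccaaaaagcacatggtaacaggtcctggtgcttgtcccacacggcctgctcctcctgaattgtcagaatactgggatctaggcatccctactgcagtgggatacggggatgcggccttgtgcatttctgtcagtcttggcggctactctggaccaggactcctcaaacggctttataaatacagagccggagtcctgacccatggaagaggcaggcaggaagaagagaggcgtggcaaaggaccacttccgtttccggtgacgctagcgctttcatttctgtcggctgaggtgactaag
Psmd4: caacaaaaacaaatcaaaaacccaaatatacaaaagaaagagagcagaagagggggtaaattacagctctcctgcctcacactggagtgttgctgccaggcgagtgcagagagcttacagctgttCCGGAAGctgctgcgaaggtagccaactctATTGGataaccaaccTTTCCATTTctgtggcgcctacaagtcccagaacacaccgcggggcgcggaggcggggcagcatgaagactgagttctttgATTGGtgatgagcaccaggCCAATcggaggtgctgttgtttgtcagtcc
Psmb5: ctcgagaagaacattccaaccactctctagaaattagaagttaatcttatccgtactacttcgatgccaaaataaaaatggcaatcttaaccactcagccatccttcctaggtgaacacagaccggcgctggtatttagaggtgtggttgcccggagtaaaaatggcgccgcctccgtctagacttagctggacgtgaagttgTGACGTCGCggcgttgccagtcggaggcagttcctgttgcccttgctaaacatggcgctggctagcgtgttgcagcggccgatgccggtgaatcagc
Psmd6: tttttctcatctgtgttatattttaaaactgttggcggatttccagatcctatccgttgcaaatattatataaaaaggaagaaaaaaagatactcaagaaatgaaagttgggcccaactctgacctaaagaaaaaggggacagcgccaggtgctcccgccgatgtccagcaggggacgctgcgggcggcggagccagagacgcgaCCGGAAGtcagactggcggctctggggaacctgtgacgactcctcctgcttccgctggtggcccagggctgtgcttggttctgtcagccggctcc

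Psma4 and Psmb4 held none of the 4 motifs in this window. Psmb3 held CCAAT with its first base at 85 and 43 bases before the start and TTTCNNTTT at 163 before it. Psmd4 held CCGGAAG at 125 bases before the start, TTTCNNTTT at 80 before it, and CCAAT 3 times, once before the start and the others just after it. Psmb5 held TGACNNNGC at 47 bases before the start, and Psmd6 held CCGGAAG at 45 before it. A window was given for 33 of the 40 genes and not for Psma8, Psmb1, Psmb2, Psmb7, Psmc3, Psmd3 and Psmd7. These 33 include Psmc3ip, which is no proteasome subunit and held CCAAT and CCGGAAG, and the untested Psmb11, which held CCAAT. TGACNNNGC was in 5 of the 33 (15.2%) and in 12.5% of the 27025 windows in the table, CCAAT in 14 (42.4%) and 37.9%, CCGGAAG in 10 (30.3%) and 9.12%, and TTTCNNTTT in 4 (12.1%) and 10.7%. Of the 21 genes raised in FBB1.7, 17 had a window, and 3, 7, 4 and 2 of these held the motifs in that order. The shares over all windows were not limited to genes tested on these arrays, and no share over the tested genes is given. A match is a run of letters and was not tested as a binding site.

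The alpha ring forms the outer rings of the core, whose N-terminal tails close the entry pore. In FBB1.7 it had 5 of 7 tested members raised, Psma1, Psma2, Psma3, Psma4 and Psma6, with log2 differences from 0.42 to 0.62, and the other subclones had at most 1 each. Psma4 read 1340 and 1456 in parental cells, 1628 and 1672 for FBB1.5, 1947 and 2248 for FBB1.7, 1992 and 1965 for FBB1.10 and 1946 and 1905 for FBB1.11. All 8 tagged arrays were above both parental arrays. Its log2 difference was 0.58 ± 0.076 in FBB1.7 (limma's adjusted p = 0.00031), 0.50 ± 0.076 in FBB1.10 (adjusted p = 0.0044), 0.46 ± 0.076 in FBB1.11 (adjusted p = 0.024) and 0.24 ± 0.076 in FBB1.5 (adjusted p = 0.14). It was the only member that passed in 3 subclones, and its call in FBB1.11 ended without either FBB1.11 array (adjusted p up to 0.32). Psma2 had 941 and 975 in parental cells, 1172 and 1255 for FBB1.5, 1460 and 1497 for FBB1.7, 1108 and 1175 for FBB1.10 and 1145 and 1226 for FBB1.11, again with every tagged array above parental. It rose by 0.62 ± 0.077 in FBB1.7 (limma's adjusted p = 0.00021) and by 0.33 ± 0.077 in FBB1.5 (adjusted p = 0.035). The FBB1.5 call was lost without any 1 of the 8 arrays not from FBB1.10 (adjusted p up to 0.23). Psma1 measured 877 and 901 in parental cells, 1000 and 979 for FBB1.5, 1154 and 1337 for FBB1.7, 1047 and 1045 for FBB1.10 and 956 and 987 for FBB1.11. Psma3 measured 1070 and 1266 in parental cells, 1323 and 1325 for FBB1.5, 1582 and 1666 for FBB1.7, 1462 and 1369 for FBB1.10 and 1300 and 1380 for FBB1.11. Both were above parental on every tagged array, but only FBB1.7 passed, by 0.48 ± 0.083 for Psma1 (limma's adjusted p = 0.0024) and 0.47 ± 0.085 for Psma3 (adjusted p = 0.0027). Psma6 rose in FBB1.7 by 0.42 ± 0.086 (adjusted p = 0.0057, and 0.087 without FBB1.7 2). Psma5 and Psma7 did not pass in FBB1.7, with 0.21 ± 0.087 and 0.31 ± 0.096 (limma's adjusted p = 0.14 and 0.055), and both passed there without parental 2 (adjusted p = 0.015 and 0.021).

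The 3 catalytic beta subunits of the standard proteasome all rose in FBB1.7, but the line in which each stood highest was not the same. Psmb7, the trypsin-like subunit, and Psmb6, the caspase-like subunit, were highest in FBB1.7, and Psmb5, the chymotrypsin-like subunit that bortezomib binds, was highest in FBB1.5. Psmb7 read 1129 and 1242 in parental cells, 1368 and 1354 for FBB1.5, 1973 and 2034 for FBB1.7, 1629 and 1561 for FBB1.10 and 1322 and 1405 for FBB1.11. Its FBB1.7 arrays lay above all others, its FBB1.10 arrays next, and both other subclones above parental. It rose by 0.75 ± 0.073 in FBB1.7 (limma's adjusted p = 3.0e-05) and by 0.42 ± 0.073 in FBB1.10 (adjusted p = 0.0096, and up to 0.097 without FBB1.10 1 or FBB1.10 2). Psmb5 read 991 and 1075 in parental cells, 1576 and 1642 for FBB1.5, 1267 and 1309 for FBB1.7, 1092 and 1286 for FBB1.10 and 1192 and 1153 for FBB1.11. Its 2 FBB1.5 arrays lay above the remaining 8, and every tagged array was above parental. The rise was 0.63 ± 0.085 in FBB1.5 (limma's adjusted p = 0.0015, under 0.05 whichever array was left out) and 0.31 ± 0.085 in FBB1.7 (adjusted p = 0.030). The FBB1.7 call was lost without parental 1, FBB1.7 1 or FBB1.7 2 (highest adjusted p 0.16). Psmb5 was lower in the other 3 subclones than in FBB1.5, with differences of -0.32 ± 0.085 for FBB1.7, -0.44 ± 0.085 for FBB1.10 and -0.45 ± 0.085 for FBB1.11 (limma's adjusted p = 0.028, 0.010 and 0.013). Psmb6 read 239.5 and 267 in parental cells, 302 and 265 for FBB1.5, 338 and 341 for FBB1.7, 256 and 254 for FBB1.10 and 219.6 and 274 for FBB1.11. Only its FBB1.7 arrays cleared all parental arrays, by 0.40 ± 0.12 (limma's adjusted p = 0.046). That call ended without parental 1, parental 2, FBB1.7 1, FBB1.7 2, FBB1.10 1 or FBB1.10 2 (adjusted p up to 0.18).

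The beta ring subunits without a proteolytic site behaved unevenly. Psmb2, Psmb3 and Psmb4 rose in FBB1.7, Psmb3 and Psmb4 also in FBB1.10, and Psmb1 passed in no subclone. Psmb3 read 778 and 818 in parental cells, 822 and 877 for FBB1.5, 1337 and 1409 for FBB1.7, 1012 and 1199 for FBB1.10 and 976 and 1021 for FBB1.11. FBB1.7 held the highest arrays, FBB1.5 lay just above parental, and the other 2 subclones lay between FBB1.5 and FBB1.7. Its log2 difference of 0.77 ± 0.090 in FBB1.7 (limma's adjusted p = 0.00013) was the largest of the 37 genes there, and it was 0.46 ± 0.090 in FBB1.10 (adjusted p = 0.020, and 0.18 without FBB1.10 2). Between FBB1.7 and FBB1.5 it differed by 0.68 ± 0.090 (adjusted p = 0.00028). Psmb4 read 2536 and 3046 in parental cells, 3229 and 3526 for FBB1.5, 4320 and 4418 for FBB1.7, 3436 and 3854 for FBB1.10 and 3405 and 3433 for FBB1.11. All tagged arrays exceeded both parental arrays, which differed from each other by more than those of any subclone. Psmb4 rose by 0.65 ± 0.080 in FBB1.7 (limma's adjusted p = 0.00019) and by 0.39 ± 0.080 in FBB1.10 (adjusted p = 0.024). The FBB1.10 call was lost without parental 1 or FBB1.10 2 (highest adjusted p 0.20), and without parental 2 Psmb4 also passed in FBB1.5 (adjusted p = 0.011) and FBB1.11 (adjusted p = 0.022). Psmb2 had 853 and 836 in parental cells, 915 and 956 for FBB1.5, 1221 and 1237 for FBB1.7, 916 and 1010 for FBB1.10 and 963 and 1022 for FBB1.11, with FBB1.7 above the other tagged lines and those above parental. It rose in FBB1.7 by 0.53 ± 0.080 (limma's adjusted p = 0.00078). For Psmb1 the 4 log2 differences lay between 0.03 and 0.11.

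**Figure D2:**
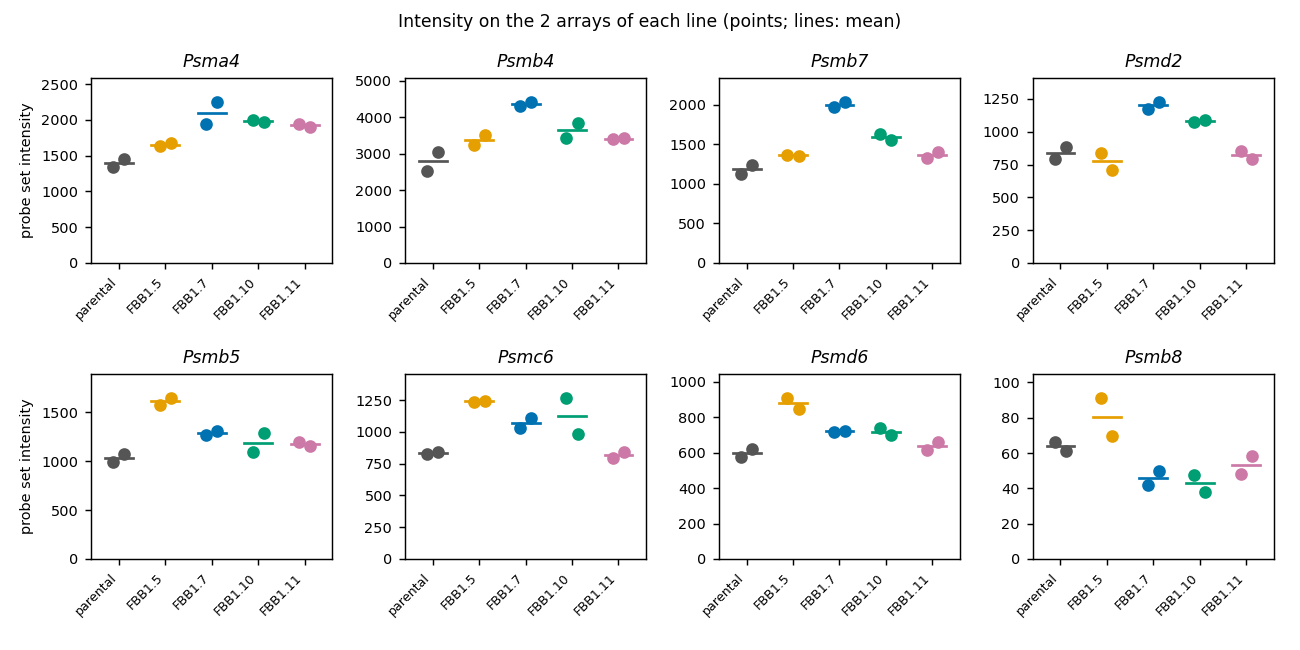
Probe set intensity on a linear axis from 0 for 8 proteasome genes, with a point for each of the 2 arrays of a line and a bar at their mean. Psma4, Psmb4, Psmb7 and Psmd2 have their highest mean in FBB1.7, and Psmb5, Psmc6, Psmd6 and Psmb8 in FBB1.5.

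The immunoproteasome subunits, which replace the standard catalytic subunits in immune cells and under interferon, are Psmb8, Psmb9 and Psmb10. None of Psmb8 (counterpart of Psmb5), Psmb9 (of Psmb6) and Psmb10 (of Psmb7) passed against parental in any subclone. Psmb8 read 66.5 and 61.3 in parental cells, 91.1 and 69.8 for FBB1.5, 41.8 and 49.6 for FBB1.7, 47.6 and 38.1 for FBB1.10 and 48.4 and 58.3 for FBB1.11. Its FBB1.5 arrays lay above parental and those of the other 3 subclones below. The log2 difference was 0.26 ± 0.16 for FBB1.5, -0.37 ± 0.16 for FBB1.7, -0.44 ± 0.16 for FBB1.10 and -0.21 ± 0.16 for FBB1.11 (limma's adjusted p = 0.49, 0.16, 0.19 and 0.66). Set against each other, FBB1.7 and FBB1.10 were lower than FBB1.5, at -0.64 ± 0.16 and -0.71 ± 0.16 (adjusted p = 0.021 and 0.023). Psmb9 read 84.5 and 80.3 in parental cells, 78.0 and 90.3 for FBB1.5, 78.4 and 89.4 for FBB1.7, 86.3 and 80.9 for FBB1.10 and 72.6 and 91.0 for FBB1.11, and the arrays of every line overlapped those of parental cells. Psmb10 read 80.0 and 97.1 in parental cells, 126 and 127 for FBB1.5, 94.9 and 105 for FBB1.7, 89.1 and 102 for FBB1.10 and 104 and 116 for FBB1.11, highest in FBB1.5, where its log2 difference of 0.45 ± 0.13 missed the threshold (adjusted p = 0.10). Of 11 listed genes of the interferon state 9 were measured, with summed intensities from 2304 in FBB1.11 to 2676 in FBB1.5, most of it from B2m in each line, and Ifit1, Irf7 and Nlrc5 never exceeded the table median. Of the 6 tested, Tap2, a subunit of the peptide transporter of antigen presentation, passed as lower in FBB1.7, at -0.79 ± 0.14 (limma's adjusted p = 0.0021), and in the mean of the subclones, at -0.52 ± 0.11 (adjusted p = 0.016, and 0.42 with the line as a random block), and the other 5 passed in no subclone.

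The ATPases of the base, Psmc1 to Psmc6, form the ring that unfolds substrates. In FBB1.7, 5 of the 6 rose, Psmc1, Psmc3, Psmc4, Psmc5 and Psmc6, by 0.35 to 0.52 on the log2 scale. In FBB1.5 only Psmc6 rose, and in FBB1.10 and FBB1.11 none passed. Psmc6 read 829 and 845 in parental cells, 1237 and 1243 for FBB1.5, 1032 and 1106 for FBB1.7, 1266 and 982 for FBB1.10 and 798 and 843 for FBB1.11. FBB1.5 was high, FBB1.11 overlapped parental cells, and the 2 FBB1.10 arrays were far apart. Psmc6 rose by 0.56 ± 0.10 in FBB1.5 (limma's adjusted p = 0.0099, and up to 0.076 without FBB1.5 1 or FBB1.5 2) and by 0.35 ± 0.10 in FBB1.7 (adjusted p = 0.043). The FBB1.7 call ended without any 1 of the 8 arrays not from FBB1.10 (adjusted p up to 0.22). In FBB1.10 the difference was 0.41 ± 0.10 (adjusted p = 0.056, and 0.021 without FBB1.10 2). Psmc5 read 452 and 532 in parental cells, 449 and 461 for FBB1.5, 664 and 685 for FBB1.7, 582 and 557 for FBB1.10 and 446 and 500.0 for FBB1.11. Psmc4 read 296 and 310.3 in parental cells, 299.8 and 250.5 for FBB1.5, 430.2 and 437 for FBB1.7, 344 and 380.1 for FBB1.10 and 328 and 320.0 for FBB1.11. In both, FBB1.7 lay above every other array and FBB1.5 overlapped parental cells. They rose in FBB1.7 by 0.45 ± 0.10 and 0.50 ± 0.11 (limma's adjusted p = 0.011 and 0.0095), and FBB1.7 exceeded FBB1.5 by 0.55 ± 0.10 and 0.63 ± 0.11 (adjusted p = 0.0030 and 0.0019). The calls against parental ended without FBB1.7 1 or FBB1.7 2, and that of Psmc5 also without parental 1 (adjusted p up to 0.089 and 0.074). Psmc3 had 393 and 446 in parental cells, 450.4 and 413 for FBB1.5, 604 and 609.8 for FBB1.7, 529 and 494 for FBB1.10 and 399 and 462 for FBB1.11, with FBB1.7 highest, FBB1.10 next, and FBB1.5 and FBB1.11 overlapping parental cells. It rose in FBB1.7 by 0.52 ± 0.10 (limma's adjusted p = 0.0056, and up to 0.052 without FBB1.7 1 or FBB1.7 2). Psmc1 rose there by 0.39 ± 0.11 (adjusted p = 0.033), a call that ended without parental 1, FBB1.7 1, FBB1.7 2, FBB1.11 1 or FBB1.11 2 (highest adjusted p 0.23). Psmc2 had 0.18 ± 0.098 in FBB1.7 and passed in no subclone.

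The non-ATPase genes of the base all rose in FBB1.7. They are Psmd1, a scaffold, Psmd2, which docks shuttle factors that carry ubiquitinated proteins, and Psmd4, a ubiquitin receptor that was raised in FBB1.10 as well. Psmd2 read 795 and 887 in parental cells, 841 and 710.5 for FBB1.5, 1175 and 1226 for FBB1.7, 1076 and 1090 for FBB1.10 and 851 and 792 for FBB1.11. Its FBB1.7 and FBB1.10 arrays lay above all parental arrays, and FBB1.5 and FBB1.11 overlapped them. It rose in FBB1.7 by 0.51 ± 0.093 (limma's adjusted p = 0.0033). In FBB1.10 it missed the threshold at 0.36 ± 0.093 (adjusted p = 0.065, and 0.044 at the lowest, without FBB1.5 1 or FBB1.5 2), while FBB1.10 exceeded FBB1.5 by 0.48 ± 0.093 (adjusted p = 0.0099). Psmd4 read 2399 and 2447 in parental cells, 2242 and 2509 for FBB1.5, 3384 and 3094 for FBB1.7, 3219 and 3144 for FBB1.10 and 2879 and 2660 for FBB1.11. FBB1.7 and FBB1.10 stood above the rest and overlapped each other. It rose by 0.41 ± 0.070 in FBB1.7 and 0.39 ± 0.070 in FBB1.10 (limma's adjusted p = 0.0018 and 0.012), and the second call ended without FBB1.10 1 or FBB1.10 2 (adjusted p up to 0.10). Psmd1 had 430.3 and 531 in parental cells, 476 and 497 for FBB1.5, 692 and 699 for FBB1.7, 540.4 and 543 for FBB1.10 and 535 and 535 for FBB1.11, where FBB1.7 was above the other 8 arrays. Its rise in FBB1.7 was 0.52 ± 0.10 (limma's adjusted p = 0.0045).

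In the lid, which holds the deubiquitinase Psmd14, 2 of 8 rose in FBB1.7 (Psmd7 and Psmd8), where 4.55% of all tested probe sets did. In FBB1.10 and FBB1.5 1 each rose (Psmd8 and Psmd6), and in FBB1.11 none. At an unadjusted p under 0.05 in limma, 6 of the 8 were higher in FBB1.7, and the median log2 difference of the 8 was 0.28. Psmd8 read 539 and 407 in parental cells, 538 and 509.8 for FBB1.5, 754 and 716 for FBB1.7, 679 and 641 for FBB1.10 and 481 and 502 for FBB1.11. FBB1.7 and FBB1.10 lay above parental cells, whose 2 arrays were far apart and overlapped FBB1.5 and FBB1.11. It rose by 0.63 ± 0.11 in FBB1.7 (limma's adjusted p = 0.0029) and 0.48 ± 0.11 in FBB1.10 (adjusted p = 0.045). The FBB1.10 call ended without any 1 of the arrays other than parental 1 (adjusted p up to 0.30). Psmd6 read 573 and 621 in parental cells, 908 and 849 for FBB1.5, 718 and 724 for FBB1.7, 738 and 699 for FBB1.10 and 615 and 662 for FBB1.11. FBB1.5 was above all other arrays, and FBB1.7 and FBB1.10 were above parental cells. Its rise of 0.55 ± 0.088 in FBB1.5 passed whichever array was left out (limma's adjusted p = 0.0046), but its dimmer tested probe set did not pass there. The difference of 0.27 ± 0.088 in FBB1.7 did not pass (adjusted p = 0.069). Psmd7, the partner of Psmd14, read 304 and 289.5 in parental cells, 345 and 357 for FBB1.5, 412 and 411 for FBB1.7, 396 and 398 for FBB1.10 and 397 and 351 for FBB1.11. All tagged arrays were above parental, and the rise in FBB1.7 was 0.45 ± 0.099 (limma's adjusted p = 0.0097), which was lost without parental 2, FBB1.7 1 or FBB1.7 2 (highest adjusted p 0.079). Psmd3 and Psmd11 had -0.02 and -0.06 in FBB1.7. Psmd12, Psmd13 and Psmd14 had 0.33, 0.27 and 0.30 there and did not pass (limma's adjusted p = 0.084, 0.17 and 0.059). Psmd12 passed in FBB1.7 without parental 2 (adjusted p = 0.013), and Psmd14 without parental 2, FBB1.5 1 or FBB1.5 2 (adjusted p from 0.041).

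The base chaperones Psmd5, Psmd9 and Psmd10, which guide assembly and leave the finished particle, passed in no subclone, with log2 differences from -0.11 to 0.22. Psmd9 read 198 and 223 in parental cells, 235 and 222 for FBB1.5, 234 and 262 for FBB1.7, 222 and 233 for FBB1.10 and 212 and 221 for FBB1.11, with only FBB1.7 clear of parental cells, at 0.22 ± 0.11 (limma's adjusted p = 0.24). Psma8 lay between 9.46 and 29.5 and Psmb11 between 7.50 and 26.8 on the 10 arrays, all under the table median of 30.5. Psmc3ip was dim, from 7.22 on parental 2 to 44.4 on parental 1, and passed in no subclone unless parental 1 was left out (lowest adjusted p 0.014, in FBB1.10).

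The core and regulatory particle genes were then set side by side on each array, as the median over genes of the log2 deviation from the mean of the 10 arrays. The core median was -0.30 and -0.13 on the parental arrays, -0.03 on both FBB1.5 arrays, 0.16 and 0.29 for FBB1.7, -0.02 and 0.03 for FBB1.10 and -0.05 and 0.01 for FBB1.11. The regulatory median was -0.20 and -0.02 on the parental arrays, -0.07 and -0.08 for FBB1.5, 0.15 and 0.21 for FBB1.7, 0.06 and 0.05 for FBB1.10 and -0.06 and -0.05 for FBB1.11. For the core every tagged array was above both parental arrays, and for the regulatory particle the arrays of FBB1.7 and FBB1.10 were, while those of FBB1.5 and FBB1.11 lay between the parental pair. The regulatory medians against parental cells turned on which parental array was used. Without parental 1 they were -0.07 for FBB1.5, 0.25 for FBB1.7, 0.09 for FBB1.10 and -0.04 for FBB1.11, and without parental 2 they were 0.10, 0.40, 0.28 and 0.12 in that order. The core median in FBB1.11 was 0.11 without parental 1 and 0.24 without parental 2. The spread between the arrays of a line was 0.072 for the core and 0.060 for the regulatory median (pooled SD), and parental 1 was the lowest array in both. Regulatory minus core was 0.10 and 0.11 on the parental arrays and -0.08 to 0.07 on the 8 tagged arrays, so the groups did not overlap. They did not overlap either without the immunoproteasome subunits and base chaperones (0.10 and 0.16 against -0.08 to 0.09) or without the members on chromosome 14 (0.08 and 0.10 against -0.08 to 0.05), both added after seeing the data. This difference between the particles carries no test, because its members were chosen with earlier results known, and with 2 parental arrays it rests on those 2 arrays.

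**Figure D3:**
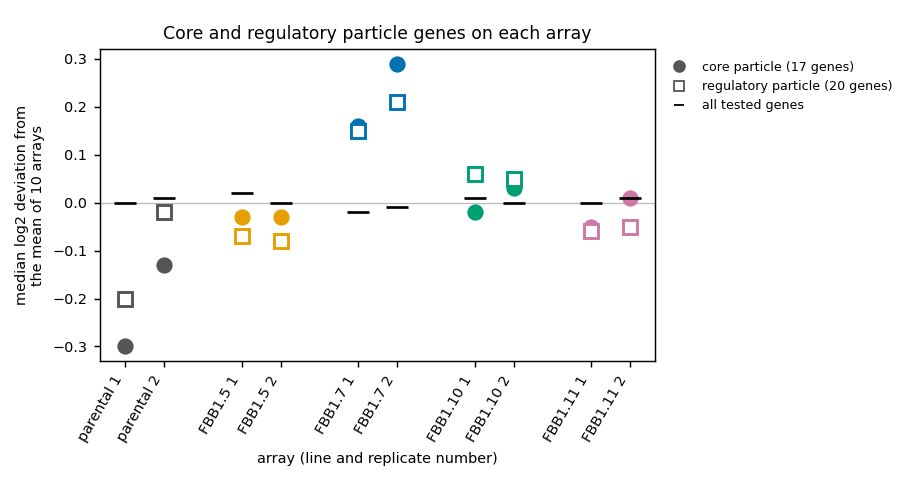
Median log2 deviation from the mean of the 10 arrays on each array, for the 17 core particle genes (filled circles), the 20 regulatory particle genes (open squares) and all tested genes (dashes). Core medians run from -0.30 on parental 1 to 0.29 on FBB1.7 2, and squares stand above circles on both parental arrays.

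Subclones with the same construct differed from each other in many of these genes. A moderated F test over the 4 subclones, which does not use the parental arrays in its contrasts, called 18 of 37 (9 core and 9 regulatory). Of all tested probe sets, dim ones included, 7.24% were called. Without an intensity trend in the variance it called 0. No share of all probe sets is given for that fit or for those with an array left out. The count was 10 without FBB1.5 1, 7 without FBB1.7 1, 6 without FBB1.7 2, 8 without FBB1.11 1 and 11 without FBB1.11 2. FBB1.7 against FBB1.5 gave the most, with 17 higher and 2 lower in FBB1.7 (Psmb5 and Psmb8), against 9.44% of all tested probe sets in either direction. FBB1.11 was lower than FBB1.7 in 9 (background 3.29%), namely Psma1, Psma2, Psmb3, Psmb4, Psmb7, Psmc3, Psmc5, Psmd2 and Psmd8. FBB1.10 differed from FBB1.5 in 5 (background 3.92%), with Psmb3, Psmd2 and Psmd4 higher and Psmb5 and Psmb8 lower. FBB1.11 was lower than FBB1.5 in 3, Psmb5, Psmc6 and Psmd6 (background 1.32%). In limma 0 members passed between FBB1.10 and FBB1.7 (background 0.124%) and 0 between FBB1.11 and FBB1.10 (background 0.267%). At an unadjusted p under 0.05, 14 were lower in FBB1.10 than in FBB1.7 (background 4.20%) and 8 lower in FBB1.11 than in FBB1.10 (background 5.03%).

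In FBB1.5 the raised proteasome genes lay mainly on chromosome 14. The tested members there are Psmb5, Psmc6 and Psmd6, and all 3 rose by their brightest probe set, with a median log2 difference of 0.56 (0.55 to 0.63). Of the 34 members on other chromosomes 1 rose, Psma2, and their median was 0.09. Over all tested genes, 82 of 440 on chromosome 14 rose in FBB1.5, with a median of 0.24, and 91 of 12062 elsewhere, with a median of 0.01. By probe sets the share that rose on chromosome 14 was 17.7%. Psme1, a subunit of the interferon-inducible proteasome activator that lies on the same chromosome, read 494 and 494 in parental cells, 856 and 814 for FBB1.5, 454 and 436 for FBB1.7, 398 and 458 for FBB1.10 and 467 and 546 for FBB1.11 and rose in FBB1.5 by 0.74 ± 0.10 (limma's adjusted p = 0.0018). None of the other subclones passed for it. The chromosome 14 members were not set apart in the other lines, where their log2 differences lay between 0.27 and 0.35 for FBB1.7, 0.20 and 0.41 for FBB1.10 and -0.03 and 0.18 for FBB1.11. The grouping by chromosome was made after the values were seen.

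**Figure D4:**
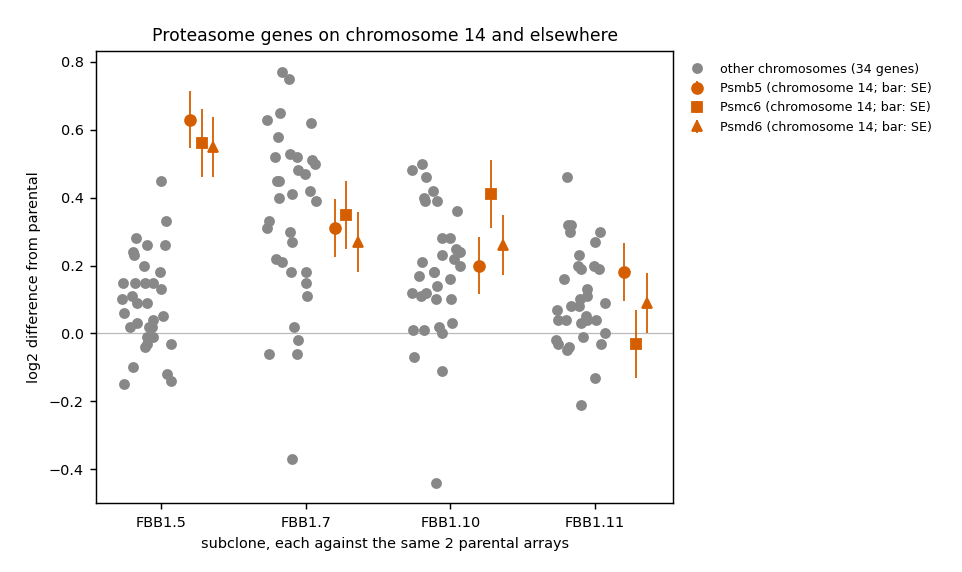
Log2 difference from parental cells of the 34 proteasome genes on other chromosomes (grey, spread sideways) and of Psmb5, Psmc6 and Psmd6 on chromosome 14 (orange, with bars for the SE) in each subclone. In FBB1.5 the 3 orange points stand at 0.55 to 0.63, above all grey points.

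Taking the 4 subclones as fixed and averaging them, 13 of 37 members were higher than parental (9 of 17 core and 4 of 20 regulatory), where 1.98% of all tested probe sets were higher. They are Psma2, Psma3, Psma4, Psma6, Psmb2, Psmb3, Psmb4, Psmb5, Psmb7, Psmc6, Psmd4, Psmd6 and Psmd7. The largest mean differences were those of Psma4, 0.44 ± 0.060, Psmb3, 0.41 ± 0.071, and Psmb4, 0.40 ± 0.063 (limma's adjusted p = 0.0014, 0.0063 and 0.0034). Psma2, Psma4, Psmb3, Psmb4 and Psmb7 passed whichever array was left out, the count ranged from 6 to 13, and it was 2 with both FBB1.7 arrays left out. With the line as a random block, 0 of 37 passed in limma, where 0% of all tested probe sets did. The parental line is the only untagged line, so this fit cannot tell the tag from other differences between that line and its subclones. It also uses the same correlation, 0.211, for all probe sets, so its p-values can be too small for genes that differ between subclones. At an unadjusted p under 0.05 in that fit 12 of 37 were higher (background 5.22%), and the lowest adjusted p was 0.32, for Psma4 at an unadjusted p = 0.00066.

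Other probe sets of the same genes gave a second reading. There were 24 tested ones over 15 genes, and in FBB1.7 they had a median log2 difference of 0.23 with 20 above 0. In FBB1.7, 6 were called higher, of Psma6, Psma7, Psmb3, Psmc2, Psmc6 and Psmd4, and none lower. Psma7 and Psmc2 were thus raised in FBB1.7 by a dimmer probe set and not by their brightest one. Other calls were not repeated. The dimmer Psmb4 probe set had 0.25 ± 0.11 in FBB1.7 and 0.15 ± 0.11 in FBB1.10 (limma's adjusted p = 0.17 and 0.56). That of Psmb3 did not pass in FBB1.10, at 0.32 ± 0.12 (adjusted p = 0.19). Neither passed in the mean of the subclones (adjusted p = 0.51 and 0.17). The dimmer tested Psma1 probe set had 0.00 ± 0.15 in FBB1.7. That of Psmc4 did not pass in FBB1.7, and that of Psmd6 did not pass in FBB1.5 or in the mean of the subclones. In FBB1.5 and FBB1.10, 1 each was higher (of Psmc6 and Psmd4), and in FBB1.11 none.

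Of 38 other listed genes of the pathway, 27 were tested. In FBB1.7, 5 rose and 1 fell, in FBB1.5 2 rose and 2 fell, in FBB1.10 1 rose and in FBB1.11 none passed. Of all tested probe sets, 4.55% rose and 5.50% fell in FBB1.7, 1.29% and 0.734% in FBB1.5, and 1.08% and 0.718% in FBB1.10. The list as a whole was not higher in FBB1.7, where its median log2 difference was -0.05 and 13 of 27 lay above 0. Its median was 0.13 in FBB1.5, 0.06 in FBB1.10 and 0.01 in FBB1.11. Pomp, the chaperone that completes core particle assembly, read 1220 ± 69.2 in parental cells (SD, n = 2), 1861 ± 51.8 for FBB1.5 and 1593 ± 55.5 in FBB1.7. It rose by 0.60 ± 0.080 and 0.38 ± 0.080 (limma's adjusted p = 0.0015 and 0.0075). Uchl5, a deubiquitinase bound to the regulatory particle, rose by 0.83 ± 0.11 in FBB1.7 and 0.66 ± 0.11 in FBB1.10 (adjusted p = 0.00023 and 0.0058). In FBB1.7 the core chaperone Psmg1, the proteasome-bound thioredoxin Txnl1 and the shuttle factor Rad23b rose as well, by 0.38, 0.32 and 0.40, and the shuttle factor Ubqln2 fell, at -0.67 ± 0.13 (limma's adjusted p = 0.0057). In FBB1.5 Psme4, another activator, and Faf1, a cofactor of the segregase Vcp, fell, at -0.53 ± 0.094 and -0.54 ± 0.11 (adjusted p = 0.0082 and 0.016). Nfe2l1 and Nfe2l2, which encode the factors named with TGACNNNGC above, and Ngly1, whose enzyme activates NFE2L1, passed in no subclone. Their log2 differences in FBB1.7 were -0.22, -0.14 and -0.15. Ngly1, which lies on chromosome 14, had 0.45 ± 0.12 in FBB1.5 (limma's adjusted p = 0.076) and differed between the subclones (F test, adjusted p = 0.014). Nfe2l1 and Nfe2l2 did not pass that F test (adjusted p = 0.20 and 0.21). None of the 5 listed ubiquitin genes had a tested probe set of its own.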

How the data were processed

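Total RNA was labelled by in vitro transcription into biotinylated cRNA and hybridised to 10 arrays, 2 per line, per the labels' protocols. The authors deposited linear intensities per probe set, and their summary, background correction and scaling steps are not given in the sources used here. Lines and replicate numbers come from the sample titles, and 0 pairs of arrays were identical. Precision is limited by the number of arrays.

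Of 45101 probe sets, 64 controls were left out, and the 25061 above the table median of 30.5 on at least 2 of 10 arrays were tested on the scale log2(intensity + 16). No further normalization was applied, since the medians of the arrays spanned 0.0623 on this scale (limit 0.2). Fits used limma 3.58.1 and statmod 1.5.0 in R 4.3.3, as 5 line means with an intensity trend (residual degrees of freedom 5, prior 9.92), and with the line as a random block (consensus correlation 0.211). Benjamini-Hochberg adjustment at 0.05 ran over all tested probe sets. The functions were tested on simulated data. Figures were drawn in Python 3.11.15 with matplotlib 3.10.9.

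Gene names come from the platform annotation, where 34958 probe sets have 1 symbol, 932 several and 9211 none. Of the first kind 34754 matched RefSeq on GRCm38.p6, which gave chromosomes and the promoter windows. Names were taken only from probe sets with 1 symbol.

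The members, the gene lists, the motifs and the tests were chosen with earlier results of these data known. Array values are given for the standard and immunoproteasome catalytic subunits, for the 20 of the members passing any test with the smallest F test p over the lines, and for the smallest such p in each role. Genes named beyond that were chosen after their values were seen. Alternatives covered the pseudocount, the filter, quantile normalization and median centring, the variance trend, the mean of a gene's probe sets, the replicate number as a block, and arrays or subclones left out. The actin ratio as a covariate and medians without some members were added after seeing the data. Replicate numbers were checked for pairing by the correlation of deviations between lines, and 1 of 10 pairs was above 0.1 (-0.16 to 0.18), so the arrays were not treated as paired.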

Additional observations from a re-analysis of the deposited data

Results flagged for a closer look

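The 4 subclones carry the same construct, yet 18 of 37 proteasome genes differed between them by limma's moderated F test, as given above with the share of all probe sets, and 0 did without an intensity trend in the variance. In the core particle the adjusted p was 0.00073 for Psmb7, 0.0016 for Psmb3, 0.0095 for Psmb5, 0.020 for Psmb2, 0.023 for Psma2 and Psmb4, 0.036 for Psmb8, 0.044 for Psma1 and 0.045 for Psma4. In the regulatory particle it was 0.0015 for Psmd2, 0.0026 for Psmd4, 0.0081 for Psmc5, 0.0095 for Psmc6, 0.0099 for Psmc4, 0.013 for Psmd8, 0.020 for Psmc3, 0.024 for Psmd6 and 0.026 for Psmd1. Psmb3, Psmb7, Psmd2 and Psmd4 passed whichever array was left out, and each of the other 14 was lost without at least 1 array. Psmb5 and Psmd6 were highest in FBB1.5, and Psmb3, Psmb7 and Psmd2 in FBB1.7.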

How the results depend on the processing

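FBB1.7 had the most raised members of the 4 subclones in each alternative that kept at least 1 array of each line, and no result changed sign past a threshold. The count of raised members fell to 0 without an intensity trend in FBB1.5, FBB1.10, FBB1.11 and the mean of the 4 subclones, and the F test between subclones to 0, while FBB1.7 had 14. In FBB1.10 it was 3 with quantile normalization, 3 with the mean of all probe sets of a gene and 2 with no intensity filter. In FBB1.11 it was 0 with no filter and 0 with the actin ratio in the fit. For the mean of the 4 subclones it was 8 with quantile normalization, 8 with median centring, 7 with no filter, 6 with the actin ratio and 2 with both FBB1.7 arrays left out, and the random block had 1 with both FBB1.5 arrays left out. With the actin ratio, chosen after seeing the data, the core median in FBB1.7 was 0.51 and the regulatory median 0.30 for FBB1.10 and 0.14 for FBB1.11. The causes of these changes were not tested, and no share of all probe sets is given for the alternatives.

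With 1 array left out, counts ranged from 2 to 4 in FBB1.5, 12 to 22 in FBB1.7, 2 to 6 in FBB1.10, 0 to 2 in FBB1.11, 6 to 13 in the mean and 6 to 20 between subclones. The core median ranged from 0.34 to 0.51 in FBB1.7 and 0.11 to 0.24 in FBB1.11, and the regulatory median from -0.07 to 0.10 in FBB1.5, 0.25 to 0.40 in FBB1.7, 0.09 to 0.28 in FBB1.10 and -0.04 to 0.12 in FBB1.11. With the replicate block, counts were 5 for FBB1.5, 21 for FBB1.7, 6 for FBB1.10 and 1 for FBB1.11, 15 in the mean and 18 between subclones. Of the values of single members under the alternatives, 4493 were the same, 292 lost and 61 gained a call, and 146 moved.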
